A study of Mus musculus with 4 samples.

Results

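The genes described here are 10 genes of prostaglandin and leukotriene synthesis, sensing and breakdown (Ptgs1, Ptgs2, Ptges, Ptgds, Ptger1, Ptger2, Ptger3, Ptger4, Hpgd and Ltc4s). They were taken by symbol from the gene lists of all 4 count matrices. All 10 were found among the 27998 genes of each matrix, and all 10 had counts, from 134 unique molecular identifiers (UMIs) for Ptger2 to 16285 for Ptger3 over all kept nuclei. They were followed through nephron segments, stromal cells and immune cells, and between kidneys with and without losartan.

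Prostaglandins and leukotrienes are lipid signals made from arachidonic acid. The cyclooxygenases encoded by Ptgs1 and Ptgs2 open the prostaglandin branch, terminal synthases such as those of Ptges and Ptgds shape its end products, the 4 EP receptors encoded by Ptger1 to Ptger4 sense prostaglandin E2, and the dehydrogenase of Hpgd inactivates it. Ltc4s encodes leukotriene C4 synthase, which joins leukotriene A4 to glutathione. In the kidney, prostaglandin E2 is known for its part in salt and water transport, renin release and medullary blood flow.

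The study profiled flash-frozen kidneys of C57BL/6 mice at postnatal week 22 by single-nucleus RNA sequencing on the 10x Chromium platform. The untreated group and the losartan group each held 2 libraries, and no other allele or agent is named in the labels. Losartan blocks the angiotensin II type 1 receptor. The sources used here do not give its dose, route or duration, the sex of the mice, or whether animals were pooled. Nothing states that the 2 libraries of a group came from separate animals, so p-values measure only the spread between these libraries, which may be technical.

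The 4 matrices held 9326 to 10342 barcodes and 42290414 to 59078762 UMIs, and 8579 to 9371 nuclei per library were kept, with medians of 3363 to 4230.5 UMIs. Pairs of libraries shared 21 to 29 barcodes. Nuclei were clustered without the 10 genes and without their pathway list, and clusters were named from fixed markers. Proximal tubule nuclei made up 33.1% and 22.5% of the untreated libraries and 53.4% and 41.8% of the losartan libraries. The opposite order held for injured proximal tubule, macrophage and lymphocyte nuclei. Proximal tubule markers were also seen in other classes. In distal convoluted tubule nuclei, 10 of them summed to 902 and 374 CPM without and 1220 and 1184 CPM with losartan, and 0 of 10 were lower with losartan. Untreated library 1 held only 9 nuclei of the collecting duct clusters led by Aqp4 and 4 of the thin limb clusters led by Kcnh7. These clusters were therefore kept as classes of their own and not tested. A level is given in CPM, the usual depth-scaled unit for counts: the UMIs of a gene over all UMIs of a class in a library. Levels are compared between classes and libraries, not between genes.

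Of the 10 genes, Ltc4s and Ptger3 gave the treatment differences described below, so the bases upstream of their transcription starts are shown first. The sequences come from the RefSeq promoter table (GRCm38.p6), which held 9 of the 10 genes, all but Ptger1. Each is written 5′ to 3′ along the gene's own strand and ends before any base that GENCODE M21 places in the gene. For Ltc4s this left 166 of 250 bases (chr11:50238617-50238782, minus strand), with a GC content of 55.4%. For Ptger3 it left all 250 bases (chr3:157566626-157566875, plus strand), with a GC content of 62.0%. Capitals mark the GC box GGGCGG on either strand.
Ltc4s: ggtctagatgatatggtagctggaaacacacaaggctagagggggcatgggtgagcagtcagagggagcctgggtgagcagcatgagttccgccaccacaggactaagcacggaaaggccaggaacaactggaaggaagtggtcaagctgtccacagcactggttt
Ptger3: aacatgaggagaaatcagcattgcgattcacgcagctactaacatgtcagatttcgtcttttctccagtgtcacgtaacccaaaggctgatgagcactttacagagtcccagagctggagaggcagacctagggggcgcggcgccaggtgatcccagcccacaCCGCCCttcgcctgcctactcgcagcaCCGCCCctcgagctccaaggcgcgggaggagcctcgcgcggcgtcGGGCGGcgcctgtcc
The Ptger3 stretch held 3 GC boxes, beginning between 87 and 15 bases before the start, and the Ltc4s stretch held 0, as did its full 250 bases. Among all 32851 promoters of the table, 32.7% held a GC box within the 250 bases before the start. Over the same 250 bases and both strands, the CACC box CCACCC was found for Ltc4s, in the bases not printed, and not for Ptger3. It was found in 28.1% of all promoters. The steroid receptor half-site AGAACA, the cyclic AMP element TGACGTCA and the AP-1 site TGANTCA were found for neither gene, and in 16.1%, 1.55% and 6.75% of all promoters.

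The other members lie elsewhere in the genome (GRCm38, GENCODE M21). Ptgs1 spans chromosome 2 from 36230426 to 36252272 and Ptgs2 chromosome 1 from 150100031 to 150108227, both on the plus strand. Ptges (30889471 to 30929863) and Ptgds (25466709 to 25470046) lie on the minus strand of chromosome 2. Ptger2 spans chromosome 14 from 44988195 to 45003820 and Hpgd chromosome 8 from 56294585 to 56321043, both on the plus strand. Ptger3 spans chromosome 3 from 157566892 to 157645888 on the plus strand, and Ptger4 chromosome 15 from 5206661 to 5244187 on the minus strand.

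The members divided the kidney between them. Ptger3 was a gene of the thick ascending limb and intercalated cells, Ltc4s of the distal convoluted tubule, and Ptger1 of the collecting duct. Ptges was shared by collecting duct, fibroblasts and, in the untreated libraries, lymphocytes. Ptgs1 was high in urothelium, collecting duct and endothelium, Hpgd in macrophages and fibroblasts, and Ptger4 was spread over podocytes, stromal and immune nuclei. Ptgs2, Ptger2 and Ptgds had few counts in every class, with class means of at most 4.59, 8.64 and 14.2 CPM.

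**Figure D1:**
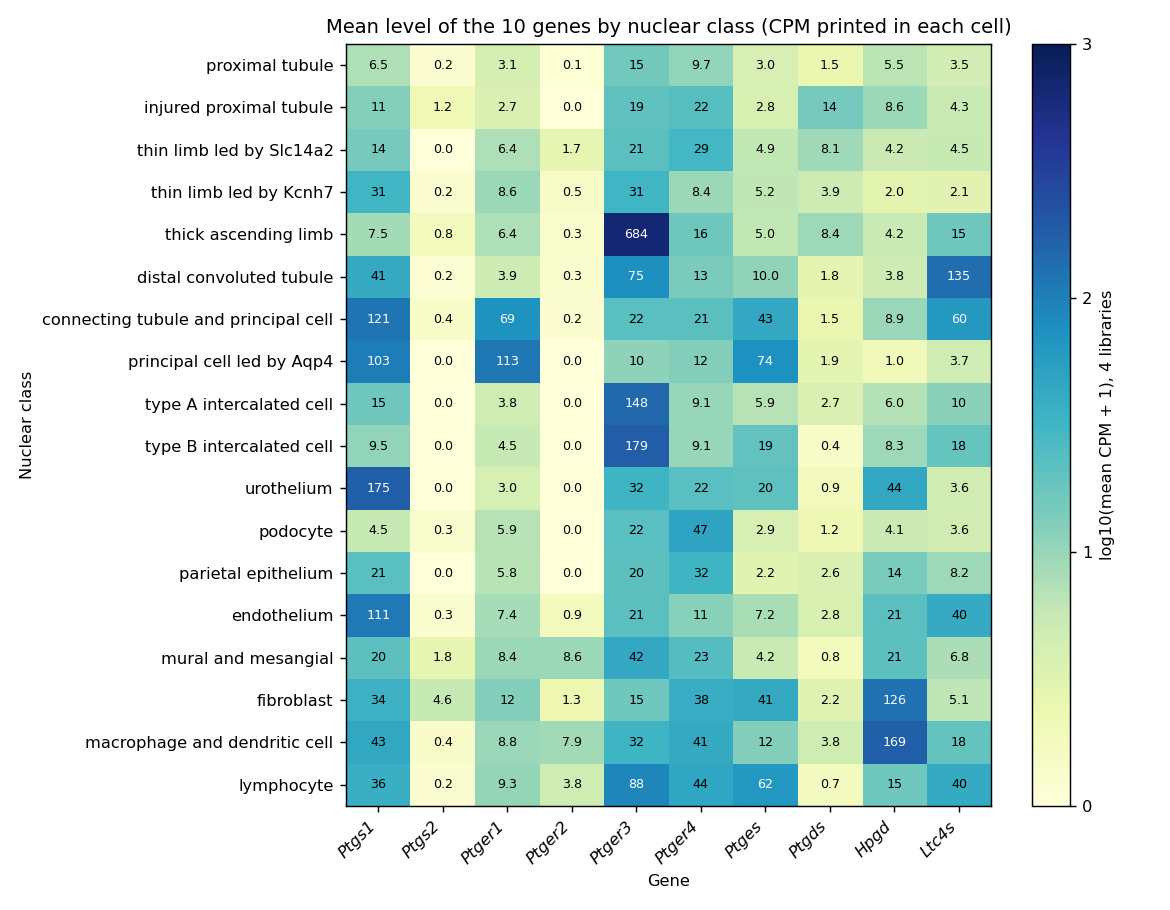
Mean CPM over the 4 libraries of each gene (columns) in 18 nuclear classes (rows), with the colour on a log10(CPM + 1) scale. Read down a column, Ptger3 peaks in the thick ascending limb (684 CPM), Ptgs1 in urothelium (175 CPM) and Hpgd in macrophages and dendritic cells (169 CPM). Adipocyte and Schwann nuclei are left out because some libraries held few or none.

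Ptgs1, the constitutive cyclooxygenase, was highest in urothelium. Its level there was 147 and 251 CPM in the untreated libraries and 158 and 146 CPM in the losartan libraries, above every library of the next class. Nuclei of the connecting tubule and principal cells followed with 107, 128, 124 and 125 CPM in untreated libraries 1 and 2 and losartan libraries 1 and 2. This class, endothelium (111 ± 18.1 CPM, SD, n = 4) and the principal cells led by Aqp4 (103 ± 26.3 CPM, SD, n = 4) overlapped in their ranges. Within endothelium, the signal sat in the larger cluster, led by genes such as Flt1 and Plvap (93.1 to 135 CPM), and was 0 to 28.3 CPM in the smaller cluster led by Vwf and Slc14a1. A UMI of Ptgs1 was seen in 34.5% of 1521 connecting tubule and principal cell nuclei (median 3451 UMIs) and in 3.69% of 13614 proximal tubule nuclei (median 4972 UMIs), which served as the background class. After thinning every nucleus to 1000 UMIs, the shares were 11.6% and 0.691%.

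Ptgs2, the inducible cyclooxygenase, was close to the limit of detection, with 139 UMIs in all libraries. Fibroblasts held 63 UMIs, and 55 of them lay in 1 fibroblast cluster, led by Cntn1, Smoc2 and Npy1r. Its level in that cluster was 18.8 and 25.6 CPM in the untreated libraries and 17.2 and 23.5 CPM in the losartan libraries. The other fibroblast cluster stayed between 0 and 1.52 CPM, so all 4 libraries separated the clusters. Losartan and untreated values overlapped in the first cluster (log2 change -0.05, SE 0.46, adjusted p = 0.9999 by edgeR's quasi-likelihood test). The macula densa is a known site of renal Ptgs2. Thick ascending limb nuclei with UMIs of at least 2 of Nos1, Pappa2 and Robo2 numbered 12, 19, 23 and 21, and they held 1, 1, 0 and 1 UMIs of Ptgs2, or 19.0, 12.5, 0 and 12.96 CPM. Thick ascending limb nuclei with none of these markers had 0.60 ± 0.24 CPM (SD, n = 4). The 0 in losartan library 1 still allows up to 29.9 CPM, so no treatment difference was detectable at this depth. In the proximal tubule Ptgs2 was at 0.22 ± 0.23 CPM (SD, n = 4).

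Ptges, the membrane-bound prostaglandin E synthase, followed Ptgs1 into the collecting duct but not into endothelium (7.2 ± 3.2 CPM, SD, n = 4). It was at 91.5, 64.0, 66.7 and 72.2 CPM in the principal cells led by Aqp4, the first value resting on 3 UMIs. Connecting tubule and principal cell nuclei had 43.4 and 50.1 CPM without and 32.3 and 44.4 CPM with losartan. Fibroblasts, at 42.5, 34.8, 42.2 and 44.8 CPM, overlapped with them. With counts pooled over the libraries, lymphocytes had the highest level (86.6 CPM). The lymphocyte class stood apart between groups, with 137 and 94.0 CPM in the untreated and 6.33 and 10.7 CPM in the losartan libraries, on 52, 98, 1 and 2 UMIs. Finer clustering put 428 of these 458 nuclei into a cluster led by Jchain, Pou2af1, Bank1 and Mzb1, genes of B and plasma cells, and a cluster led by the T cell genes Themis, Cd247 and Skap1. The first cluster reached beyond the class, with 85 and 211 nuclei in the untreated and 45 and 60 in the losartan libraries. The naming rule left it unnamed. Among lymphocyte nuclei of the untreated libraries, Ptges was at 435 and 170 CPM in the first and at 37.0 and 12.9 CPM in the second. The first cluster held 33 and 133 lymphocyte nuclei in the untreated but only 4 and 7 in the losartan libraries, with 1 and 0 UMIs of Ptges. The part of this change of makeup in the class value was not tested, and the class was too small in both losartan libraries (36 and 45 nuclei) for the treatment test.

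Ptgds, the lipocalin-type prostaglandin D synthase, was led by injured proximal tubule nuclei, at 10.98 and 14.9 CPM without and 13.9 and 17.1 CPM with losartan. The thick ascending limb followed with 11.9, 9.35, 2.70 and 9.47 CPM, and the ranges of these classes overlapped. Within it, the cluster led by Tmem207 had 18.0, 15.2, 4.54 and 14.4 CPM, and the cluster led by Enox1 0.64 to 4.54 CPM. Losartan library 1 was the low one in both clusters. A UMI was seen in 6.62% of injured proximal tubule nuclei and 0.735% of proximal tubule nuclei.

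Among the receptors, Ptger1 (EP1, coupled to calcium signals) marked the collecting duct. The principal cells led by Aqp4 had 30.5 and 197 CPM in the untreated and 88.9 and 136 CPM in the losartan libraries, the lowest value resting on a single UMI in 9 nuclei. Connecting tubule and principal cell nuclei were tighter, at 65.4, 81.4, 62.1 and 67.8 CPM (mean 69.2 ± 8.45, SD, n = 4). A UMI was found in 41.9% of the principal cells led by Aqp4 against 1.69% of proximal tubule nuclei, or 14.7% against 0.279% after thinning. Beyond the collecting duct, Ptger1 was seen in the fibroblast cluster that also held Ptgs2, at 58.2 and 33.4 CPM in the untreated and 17.2 and 16.8 CPM in the losartan libraries. Those groups did not overlap, but the difference in that cluster missed the threshold (log2 -1.34, SE 0.47, adjusted p = 0.634, edgeR).

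Ptger2 (EP2, coupled to cyclic AMP) had too few counts for a class test, passing the filter in none of the 13 classes. Its highest class means were 8.64 ± 5.23 CPM in mural and mesangial nuclei and 7.88 ± 6.24 CPM in macrophages and dendritic cells (SD, n = 4), which overlapped. Only 16 of 480 mural and mesangial nuclei had a UMI (3.33%, exact 95% interval 1.92% to 5.36%, counting error only), against 9 of 13614 proximal tubule nuclei. Ptger2 also lies wholly inside the antisense gene Gm17173, which had 2, 2, 2 and 1 UMIs in mural and mesangial nuclei. In macrophages and dendritic cells Gm17173 had 2, 9, 0 and 0 UMIs and Ptger2 2, 20, 1 and 1, and without the counting strand their reads cannot be told apart.

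Ptger3 (EP3, which lowers cyclic AMP) had the sharpest pattern. The thick ascending limb, the segment that takes up salt through Slc12a1, had 747 and 684 CPM in the untreated and 545 and 761 CPM in the losartan libraries. Every library of it lay above every library of any other class. Type B intercalated cells (200, 142, 183 and 191 CPM) and type A intercalated cells (137, 156, 185 and 112 CPM) came next and overlapped each other. Within the thick ascending limb, the cluster led by Tmem207 had 614 to 993 CPM, and the cluster led by Enox1, Casr and Egf had 341 to 521 CPM, with no overlap. A UMI was seen in 66.3% of thick ascending limb nuclei against 6.49% of proximal tubule nuclei, and in 39.9% against 1.33% after thinning. In the nuclei chosen as macula densa the level was 475, 226, 429 and 583 CPM.

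**Figure D2:**
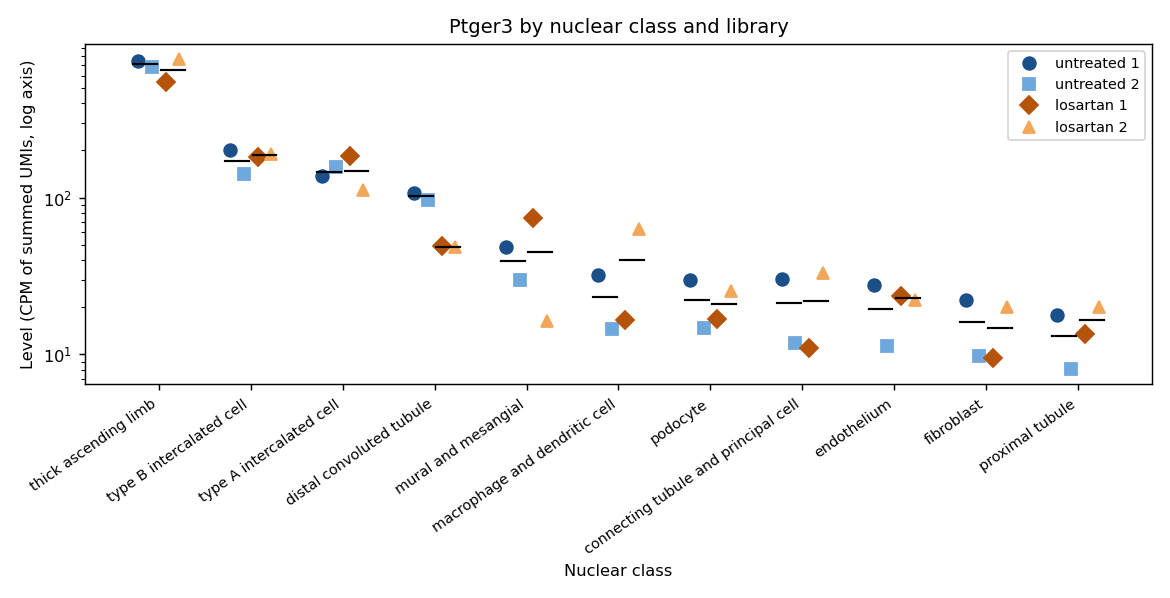
Ptger3 level per library (points, CPM on a log axis) in 11 nuclear classes ordered by mean, with the mean of each treatment group as a bar. The thick ascending limb lies above all others, and the distal convoluted tubule is the class in which both losartan libraries (49.0 and 48.1 CPM) lie well below both untreated ones (108 and 96.0 CPM).

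Ptger4 (EP4, coupled to cyclic AMP) had no sharp peak. Its highest means were in podocytes (47.1 ± 12.4 CPM), lymphocytes (44.0 ± 10.2 CPM), macrophages and dendritic cells (41.2 ± 10.6 CPM) and fibroblasts (37.9 ± 7.69 CPM, SD, n = 4 for each), and these overlapped. Podocytes had 35.3 and 42.8 CPM without and 45.8 and 64.5 CPM with losartan, which did not overlap, and the test gave a log2 change of 0.48 (SE 0.34, adjusted p = 0.832, edgeR). Macrophages and dendritic cells went the other way, at 50.2 and 49.0 CPM without and 27.7 and 37.8 CPM with losartan (log2 -0.57, SE 0.42, adjusted p = 0.700, edgeR). The gene shares 31.1% of its length with Ttc33 on the opposite strand, which was at 12.1 to 23.0 CPM in podocytes and at 4.20 to 23.2 CPM in macrophages and dendritic cells.

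Hpgd, the enzyme that inactivates prostaglandin E2, was highest in macrophages and dendritic cells and in fibroblasts. Macrophages and dendritic cells had 203 and 201 CPM in the untreated and 166 and 105 CPM in the losartan libraries. Fibroblasts had 104 and 86.2 CPM without and 181 and 133 CPM with losartan. The groups therefore separated in both classes, in opposite directions, and neither change passed the test: log2 -0.59 (SE 0.30, adjusted p = 0.544) in macrophages and dendritic cells and log2 0.72 (SE 0.19, adjusted p = 0.297) in fibroblasts, by edgeR. The fibroblast change was also called without untreated library 1 (log2 0.865), a fit with 1 untreated library and more calls of all genes. Without the filter on low counts it was called as well (adjusted p = 0.00161, edgeR). There 2.94% of all genes were called, against 0.0231% with the filter. The fibroblast signal came from the cluster led by Sntg1 and Fbln5 (124, 109, 205 and 155 CPM), not from the cluster that held Ptgs2 (6.70 to 30.2 CPM). A small endothelial cluster, whose leading genes include Lef1, Slc14a1, Sox17 and Vwf, had 261 and 185 CPM without and 214 and 161 CPM with losartan. The main endothelial cluster stayed at 3.90 to 5.97 CPM, so endothelium as a class (20.7 ± 4.6 CPM, SD, n = 4) averaged these unlike clusters. Fibroblast markers themselves were lower in the losartan fibroblasts in 6 of 7 cases, summing to 4528 and 5526 CPM without and 3085 and 3335 CPM with losartan. The part of that shift in the Hpgd values was not tested.

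Ltc4s, the leukotriene C4 synthase, was led by the distal convoluted tubule, the segment of the thiazide-sensitive cotransporter Slc12a3. The gene lies on chromosome 11 from 50236461 to 50238616 (minus strand, GRCm38). A UMI was seen in 31.1% of 2585 distal convoluted tubule nuclei (median 3691 UMIs) and in 1.67% of proximal tubule nuclei, or 11.3% and 0.206% after thinning. Connecting tubule and principal cell nuclei (60.04 ± 40.03 CPM) and endothelium (40.1 ± 20.5 CPM, SD, n = 4 for both) followed among classes seen in all libraries, and these means hide the split by treatment described next.

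Both losartan libraries had less Ltc4s than both untreated ones in the distal convoluted tubule, the thick ascending limb and the connecting tubule and principal cell nuclei. In the distal convoluted tubule, the level was 172 and 204 CPM in the untreated and 68.8 and 93.2 CPM in the losartan libraries, with no overlap. It fell by 1.18 on the log2 scale (SE 0.16, adjusted p = 0.0428 by edgeR's quasi-likelihood test with Benjamini-Hochberg adjustment over 12063 genes). In the thick ascending limb it went from 22.5 and 28.7 CPM to 3.89 and 6.87 CPM, and fell by 2.16 (SE 0.30, adjusted p = 0.0372, edgeR). Both clusters of the thick ascending limb were fitted apart, a step added after seeing the data. The cluster led by Enox1 had 39.4 and 54.8 CPM without and 5.08 and 11.1 CPM with losartan, and Ltc4s fell by 2.49 (SE 0.34, adjusted p = 0.00297, edgeR), where 1.84% of 11382 genes were called. The cluster led by Tmem207 had 8.39, 5.20, 2.84 and 3.99 CPM (log2 -0.90, SE 0.50, adjusted p = 0.795, edgeR), where 0.245% of genes were called. Whether the clusters differed in this change was not tested.

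Elsewhere the same order of groups missed the threshold. Connecting tubule and principal cell nuclei had 111 and 71.0 CPM without and 18.9 and 39.6 CPM with losartan (log2 -1.60, SE 0.32, adjusted p = 0.0830, edgeR). This change was called without untreated library 1 (log2 -1.27), untreated library 2 (-1.90) or losartan library 2 (-2.23), and not without losartan library 1 (-1.16). Each of these fits held 1 library in a group, and the calls of all genes shifted between them as well. Endothelium had 57.7, 52.4, 11.9 and 38.2 CPM (log2 -0.9999, SE 0.40, adjusted p = 0.982, edgeR). Without untreated library 1, which left 1 untreated library, the change was -0.889 and called, among more calls of all genes. The small lymphocyte class, not tested, ran the other way with 26.4, 16.3, 31.7 and 85.7 CPM on 10, 17, 5 and 16 UMIs.

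**Figure D3:**
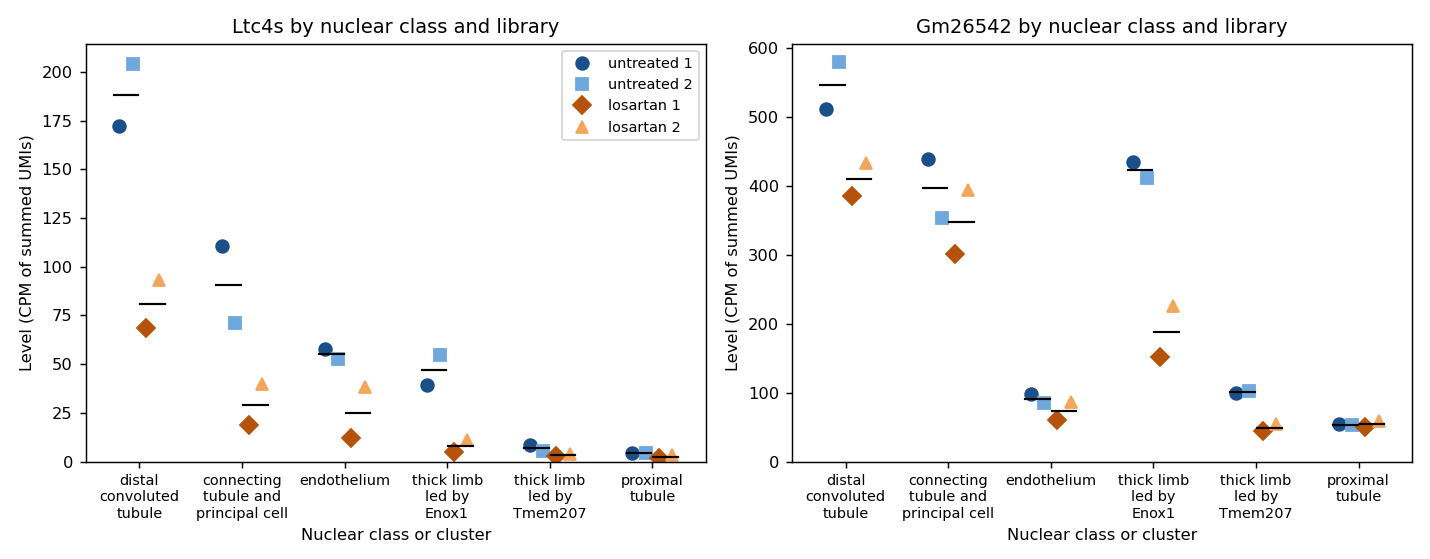
Level per library (points, CPM) of Ltc4s (left) and of Gm26542, the gene that overlaps it on the opposite strand (right), in 4 classes and both thick ascending limb clusters, with group means as bars. Ltc4s is lower in both losartan libraries in each class or cluster drawn, whereas Gm26542 is lower in both in the distal convoluted tubule and in both thick ascending limb clusters, and its groups overlap in endothelium, the proximal tubule and the connecting tubule and principal cell nuclei.

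The antisense gene Gm26542 (chromosome 11, 50236953 to 50288839, plus strand) covers 77.2% of Ltc4s, and without the counting strand their reads cannot be told apart in the shared 1664 bases. Gm26542 was also highest in the distal convoluted tubule, at 512 and 579 CPM without and 385 and 434 CPM with losartan (log2 -0.38, SE 0.11, adjusted p = 0.282, edgeR). In the thick ascending limb it fell with Ltc4s, from 251 and 249 to 95.3 and 123 CPM (log2 -1.13, SE 0.14, adjusted p = 0.0273, edgeR). In connecting tubule and principal cell nuclei it was at 439, 353, 301 and 393 CPM, with overlapping groups (log2 -0.17, adjusted p = 0.829, edgeR). In the proximal tubule it was at 54.9, 52.3, 50.04 and 58.7 CPM, while Ltc4s was at 1.65 to 4.49 CPM.

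The calls of Ltc4s depended on the libraries and on the processing. DESeq2 kept both, with adjusted p = 4.05e-05 in the distal convoluted tubule and 0.000679 in the thick ascending limb. It called 0.596% and 0.915% of its genes there. With 1 library left out, a group held 1 library, and the calls of all genes shifted as well. In such fits fewer of all genes were called in the distal convoluted tubule. The call of Ltc4s there was lost without losartan library 1, untreated library 1 or untreated library 2. It was also lost with doublets kept (adjusted p = 0.0548), without the filter on low counts (0.0903) and at the finer clustering (0.0586), by edgeR. Without losartan library 1 or 2, the thick ascending limb had a log2 change of -1.84 or -2.66. The call was lost, with fewer of all genes called. Without untreated library 1 or 2 the change was -2.32 or -1.97. The call held, with more of all genes called. The thick ascending limb call was also lost without the nuclei richest in proximal tubule UMIs (adjusted p = 0.0696, edgeR). The log2 change of Ltc4s kept its sign under all alternatives. It ran from -1.42 to -0.97 in the distal convoluted tubule and from -2.66 to -1.84 in the thick ascending limb.

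Ptger3 was the other gene called. In the distal convoluted tubule it was at 108 and 96.0 CPM in the untreated and 49.0 and 48.1 CPM in the losartan libraries. It fell by 1.03 (SE 0.13, adjusted p = 0.0406, edgeR), without overlap of the groups. In the thick ascending limb, its main site, the log2 change was -0.07 (SE 0.16, adjusted p = 0.942, edgeR), and losartan library 2 had the highest value there. In type A and type B intercalated cells the changes were 0.08 and 0.14 (SE 0.24 and 0.21, adjusted p = 0.953 and 0.957, edgeR). The call in the distal convoluted tubule was lost when any 1 of the 4 libraries was left out, with log2 changes of -1.10 to -0.95. Those fits held 1 library in a group, and fewer of all genes were called in them. The call was also lost with doublets kept (log2 -0.88, adjusted p = 0.0946) and without the filter on low counts (adjusted p = 0.0661), by edgeR. DESeq2 kept it (adjusted p = 0.00644).

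Other marker lists moved between groups within the distal convoluted tubule class, where Ltc4s and Ptger3 fell. Its own 6 markers summed to 24757 and 24564 CPM without and 33011 and 30574 CPM with losartan, with 1 of 6 lower. The 6 connecting tubule markers summed to 15299.7 and 17214 CPM without and 13508 and 12585 CPM with losartan, with 3 of 6 lower. The 8 markers of injured proximal tubule were all lower, at 827 and 659 against 404 and 454 CPM. Thick ascending limb markers, which come with Ptger3, were at 1498, 1135, 1377 and 1450.0 CPM, with overlapping groups. In the thick ascending limb class, the distal convoluted tubule markers, which come with Ltc4s, were higher with losartan (3136 and 3103 CPM) than without (2213 and 2249 CPM). The part of these shifts in either gene's values was not tested.

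**Figure D4:**
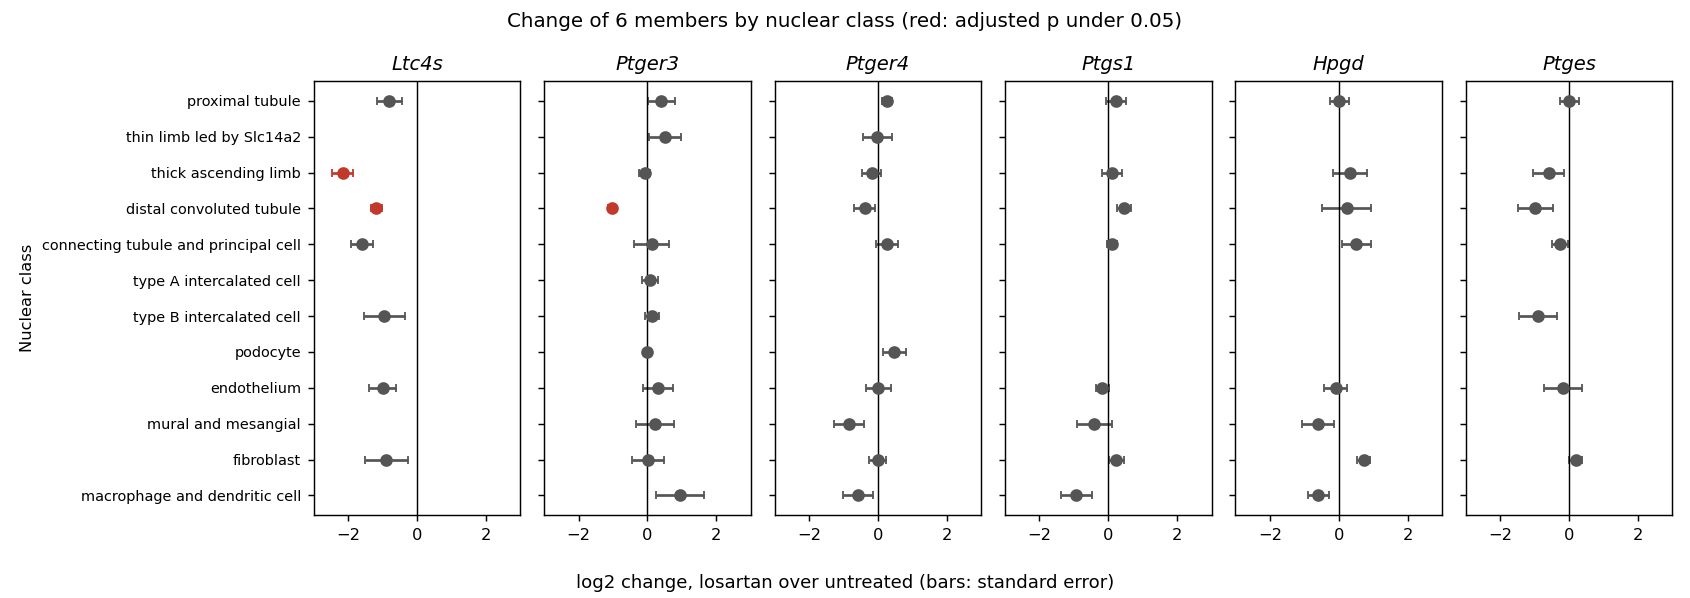
Log2 change of 6 genes, losartan over untreated, in the classes where each passed the filter on low counts, with standard errors as bars and calls in red. The red points are Ltc4s in the thick ascending limb (-2.16) and distal convoluted tubule (-1.18) and Ptger3 in the distal convoluted tubule (-1.03).

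Across the 13 classes tested, 61 of 130 gene and class pairs passed the filter on low counts, and the 3 calls above, all lower with losartan, were the calls at an adjusted p under 0.05 by edgeR. The share of all tested genes called was 0.249% in the distal convoluted tubule, where 2 of 7 tested members were called. It was 0.349% in the thick ascending limb, where 1 of 8 was called. Over the 13 classes, 8 of the 61 pairs (13.1%) had an unadjusted p under 0.05, beside 9.36% of the pairs of all genes. In the other 11 classes no member was called by edgeR. In them 4 pairs had an unadjusted p under 0.05, beside 2.74% to 16.4% of all genes by class. DESeq2 called Ltc4s in connecting tubule and principal cell nuclei, where it called 0.32% of its genes. By edgeR, 0.140% of all genes were called in connecting tubule and principal cell nuclei, 0.0231% in fibroblasts and 2.15% in mural and mesangial nuclei. The share was 0.0198% in parietal epithelium, 0.275% in podocytes, 2.53% in type A and 0.122% in type B intercalated cells. In endothelium, macrophages and dendritic cells, proximal tubule and the thin limb led by Slc14a2 it was 0%.

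In the whole kidney, Ltc4s was at 29.1 and 29.4 CPM in the untreated and 7.08 and 11.8 CPM in the losartan libraries. Fewer nuclei of a class and less RNA per nucleus cannot be told apart in such sums. Its log2 change was -1.49 (SE 0.24, adjusted p = 0.110, edgeR). Ptgds was at 4.76 and 4.57 against 1.13 and 2.52 CPM (log2 -1.21, SE 0.39, adjusted p = 0.181, edgeR). Ptger2 was at 0.69 and 1.46 against 0.42 and 0.40 CPM (log2 -1.24, SE 0.44, adjusted p = 0.202, edgeR). None of the 10 members was called by edgeR, as for 0% of 18410 genes, while 3 members, and 21.9% of all genes, had an unadjusted p under 0.05, and DESeq2, which called 9.63% of its genes, called 1, Ltc4s. The median log2 change of the 10 members was -0.61, beside -0.01 over all genes tested.

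The change in the thick ascending limb was also tested against that in the proximal tubule, where Ltc4s had a log2 change of -0.80 (SE 0.37, adjusted p = 0.446, edgeR). The difference was -1.38 for Ltc4s (SE 0.31, adjusted p = 0.192) and -0.53 for Ptger3 (SE 0.28, adjusted p = 0.553), by edgeR with the library as a block. No member of the 8 tested was called by edgeR, where 0.0714% of all 15415 genes were called. An unadjusted p under 0.05 was found for 1 of the 8, beside 10.8% of all genes. DESeq2, which called 0.302% of its genes, called 0 members. Without untreated library 1, Ptger3 was called in this comparison (log2 -1.14, adjusted p = 0.0102, edgeR), where 2.48% of all genes were called. Without untreated library 2 its difference was -0.09 (adjusted p = 0.921, edgeR), so the value rests on which untreated library is used. The overlapping gene Gm26542 was called in it (log2 -1.19, SE 0.13, adjusted p = 0.03995, edgeR).

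A list of 41 other prostaglandin and leukotriene pathway genes gave the surroundings of these members, and 40 of its symbols were in the matrices. Of the 32 with at least 20 UMIs in the tested class of their highest mean, 8 (25.0%) were highest in macrophages and dendritic cells and 5 (15.6%) in fibroblasts. The shares among 14977 genes counted the same way were 15.8% and 9.59%. Examples, chosen after their values were seen, were the thromboxane synthase Tbxas1 (413 ± 161 CPM) and the prostaglandin D synthase Hpgds (193 ± 75.9 CPM) in macrophages and dendritic cells, and the prostacyclin synthase Ptgis (182 ± 24.3 CPM) in fibroblasts (SD, n = 4 for each). The prostaglandin F receptor Ptgfr was highest in the distal convoluted tubule (386 ± 60.7 CPM), the segment of Ltc4s. The prostaglandin transporter Slco2a1 was highest in podocytes (254 ± 34.8 CPM, SD, n = 4 for both).

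Of 216 tested pairs of these genes and classes, 1 rose and 0 fell. An unadjusted p under 0.05 was found for 48 of them (22.2%), beside 9.36% of the pairs of all genes. The median log2 change of the list lay between -0.30 and 0.22 over the 13 classes, beside -0.02 to 0.01 for all genes. The gene that rose was Ephx2, the soluble epoxide hydrolase, in type A intercalated cells. It was at 18.2 and 13.3 CPM in the untreated and 58.5 and 66.5 CPM in the losartan libraries (log2 2.05, SE 0.35, adjusted p = 0.0144, edgeR). In that class 205 genes were called, 196 of them higher. In the proximal tubule Ephx2 was at 135 to 202 CPM. Proximal tubule markers in the type A class summed to 1317 and 634 CPM without and 4433 and 3223 CPM with losartan, with 0 of 10 lower. Without the nuclei richest in those markers the change was 1.85 and not called (adjusted p = 0.461), and without untreated library 2 it was 1.82 (adjusted p = 0.0932), by edgeR.

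The genes most like each member were sought by the Pearson correlation of log2(CPM + 1) class means over 20 named classes, among 8751 genes. These points share libraries and depth, and the values are a description. Closest to Ptger1 were Aqp2 (r = 0.87), Zfp458 (0.84) and Aqp4 (0.82), of which Aqp2 and Aqp4 are water channels of principal cells. Closest to Ltc4s were Sdpr (0.86), its overlapping gene Gm26542 (0.83) and Cep68 (0.82). Ptger3 had Rbmx, Ndufs4 and Atp5f1 nearest (0.77, 0.77 and 0.76), and Ptgs1 had Ly6e, Lypd6 and Myh10 (0.82, 0.76 and 0.74). Ptger4 had Kif5b, Arrb1 and Mcmbp (0.91, 0.89 and 0.88), and Hpgd had Extl3, Tpst1 and Celf4 (0.87, 0.85 and 0.85). Ptges had Arhgdib, Mbp and Trpv6 nearest (0.77, 0.74 and 0.74).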

How the data were processed

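The deposited counts are raw UMIs per gene and nucleus, written by Cell Ranger 5.0.0 per the file headers. The submitters' processing notes name Bowtie 0.12.2 and mm10, and whether introns were counted and on which strand is not given in the sources used here. Reads of a member and of an overlapping antisense gene can therefore not be told apart, and 1 such comparison is not reported here. Nuclei needed at least 500 UMIs, 300 genes and at most 10% mitochondrial UMIs. Doublets were scored with Scrublet in scanpy 1.11.5, and where its own threshold did not work the highest scores (0.8% per 1000 nuclei) were removed. Clusters (3000 variable genes, 30 components, resolution 1) were named from fixed marker sets, and names mean nuclei that resemble the type. The limits that left clusters unnamed, or kept those led by Aqp4 and Kcnh7 apart, were set after seeing the clusters, and 2063 nuclei stayed unnamed. Fits of single thick ascending limb, fibroblast and endothelial clusters were also added after seeing the data. Counts were summed per library and class with at least 50 nuclei in each library and tested with edgeR 4.0.16 (TMM, filterByExpr, Benjamini-Hochberg over all genes), tested on simulated data. Alternatives included DESeq2 1.42.0. Every member was named in the text, pathway genes where called, 5 further pathway genes chosen after their values were seen, and the 3 genes nearest to a member with a class mean of at least 20 CPM. The members and lists were chosen with earlier results of these data known.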

Additional observations from a re-analysis of the deposited data

Results flagged for a closer look

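The Hpgd levels of the groups separated in 2 classes, and in opposite directions. Its losartan mean minus its untreated mean was -66.51 CPM in macrophages and dendritic cells (202 to 136 CPM) and 61.83 CPM in fibroblasts (94.98 to 157 CPM). The difference between the classes was not tested, and neither change was called by edgeR. That in fibroblasts was called without untreated library 1, which left 1 untreated library and raised the calls of all genes. It was also called without the filter on low counts (adjusted p = 0.00161) and with the replicate block (0.0159), by edgeR. Of all fibroblast genes, 2.94% were called without the filter and 2.99% with the block, against 0.0231% as reported. Only members with at least 20 UMIs in every library of a class were screened in this way. Ltc4s, Ptgds, Ptger3, Ptger4 and Ptgs1 also separated in a tested class, and Hpgd was flagged for its opposite directions. With 2 libraries in each group such separation arises easily, and its share over all genes was not obtained.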

How the results depend on the processing

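Over the 13 changes of a member or Ephx2 that were recomputed, 161 alternative values were obtained. Of these, 126 kept their direction and side of the threshold, 18 lost a call, 17 gained one and 0 reversed. Changes of members entered once called under any setting, so gained calls follow from the choice. Hpgd in macrophages and dendritic cells and Ephx2 in type A intercalated cells were added. Some settings left the nuclei of a class unchanged and repeat the reported fit, so the 126 are not separate checks. DESeq2 kept the 3 calls within classes and added Ltc4s in connecting tubule and principal cell nuclei. It called 0.725% of the pairs of all genes and classes. The 3 calls became 1 with doublets kept (both distal convoluted tubule calls were lost). Without the filter there were 5, but both distal convoluted tubule calls were lost, and Hpgd and Ptger1 in fibroblasts and Ltc4s in connecting tubule and principal cell nuclei and in endothelium were gained. With the replicate block there were 5, and 0 to 4 when 1 library was left out, the 0 being without losartan library 1. Of the pairs of all genes and classes, 0.411% were called in the analysis as reported, 0.317% with doublets kept, 1.19% without the filter, 2.14% with the block and 0.384% to 3.60% with 1 library left out. In the whole kidney, DESeq2 called 1 member and the replicate block 2, against 0, where 9.63% and 12.3% of all genes were called. For the difference between the thick ascending limb and the proximal tubule, no filter gave 1 call against 0 (2.13% of all genes called), and leaving out 1 library gave 0 to 1 (0% to 2.48%). With the replicate block, Hpgd in fibroblasts (adjusted p = 0.0159), Ltc4s in connecting tubule and principal cell nuclei (1.77e-10) and Ltc4s and Ptges in the whole kidney (0.0155 and 0.0415) were called by edgeR. The replicate 1 minus 2 difference of the untreated group correlated over genes with that of the losartan group at 0.03 to 0.35. With 2 pairs, this does not show that the shared replicate numbers pair the samples. With 1 library left out a group has 1 sample, assumed to vary like the other group. Merging the clusters led by Aqp4 and Kcnh7 with their neighbours was chosen after seeing the data. It did not touch the classes of the 3 calls, which stayed as they were. In the merged connecting tubule and principal cell class, Ltc4s had log2 -1.86 (adjusted p = 0.884), against -1.60 (0.0830) unmerged, by edgeR. There 0% of all genes were called, against 0.140% unmerged. All kept nuclei had over 1000 UMIs, so that limit changed nothing. The class with the highest mean was kept for 7 to 10 of the 10 members under other groupings, pooling and shares of nuclei. At this depth Ptgs2, Ptger2 and Ptgds passed the filter in 1, 0 and 2 of the 13 classes, so most of their changes could not be tested.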
